A study of Danio rerio with 4 samples.

Results

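The Bcl2 family sets the threshold for cell death at the mitochondrion, and its members were followed here in wild-type and MZ*eomesa* zebrafish embryos. Members were found by gene name in the deposited table: *bbc3*, *pmaip1*, *bcl2l11* and *bmf1* among the BH3-only genes, *baxa* and *baxb* as effectors, and *bcl2*, *bcl2l1*, *mcl1a* and *mcl1b* as survival genes. Of these 10 names, 9 are listed, in 10 rows out of 32468, because *baxa* has an entry under each of 2 identifiers. No row carries the name *bmf1*.

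Poly(A) RNA of whole embryos was sequenced at sphere stage, a blastula stage, with 2 samples in each of the groups. The wild-type group is the AB strain. The MZ*eomesa* group carries the *fh105* allele of *eomesa* (labelled eomesafh105, also in AB) and lacks both the maternal and the zygotic supply of the T-box factor Eomesa. According to the methods such embryos came from homozygous mutant parents, and in some experiments embryos lacking only the maternal supply took their place. The labels do not say whether this holds for the RNA samples, nor how many embryos went into each. All embryos were reared in E3 medium.

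Expression is given as FPKM, the number of sequenced fragments scaled to transcript length and to library size. The table holds 1 value of each gene for a group, combined over both of its samples. No value of a separate sample was used, so the FPKM values carry no standard deviation, and no difference below has a replicate check or a p-value. Read depth is unknown, and no interval was computed. A difference is given as the log2 ratio, MZ*eomesa* over wild-type, without a pseudocount. Genes with status OK in the table, above 0 in both groups and averaging at least 1 FPKM passed the filter, 14828 in all. Among them the median log2 ratio was -0.01, with the 25th percentile at -0.29 and the 75th at 0.27. A gene was counted as past the fold at 2-fold in either direction, which held for 5.40% of genes on the higher side and 3.80% on the lower side. In whole embryos, fewer cells of a type and less RNA per cell cannot be told apart.

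As a check of the labels, *eomesa* was listed at 62.6 FPKM in wild-type against 1.52 FPKM in MZ*eomesa* embryos. The blastula genes *pou5f1* (493 and 588 FPKM), *sox3* (85.2 and 125 FPKM), *vox* (60.5 and 52.2 FPKM), *ntla* (10.6 and 18.5 FPKM) and *vent* (17.8 and 5.82 FPKM) were present in both groups. *vent*, with a log2 ratio of -1.61, was the only marker of these 5 past 2-fold. Of genes of later tissues, *ins* was listed at 0 in both groups, while *elavl3* (0.728 and 3.96 FPKM) and *mpz* (0.847 and 2.52 FPKM) were not absent. *elavl3* and *mpz* were the only listed later-tissue markers to pass the filter. Both were past 2-fold on the higher side in MZ*eomesa* embryos, with log2 ratios of 2.44 and 1.57. Markers of extraembryonic layers also moved with genotype. The 4 markers of the yolk syncytial layer summed to 94.9 FPKM in wild-type against 8.35 FPKM in MZ*eomesa* embryos, and the 6 keratin markers of the enveloping layer to 250 and 489 FPKM. The keratin sums include *krt18* (120 and 268 FPKM), marked as a failed estimate in the table, and were 129 and 221 FPKM without it. None of these 10 was at 0, and their part in the results for the Bcl2 family was not tested.

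In the mitochondrial route to apoptosis, Bax-type effectors permeabilise the outer mitochondrial membrane and so release cytochrome c, which activates Apaf1 and caspase 9. Survival members such as Bcl2, Bcl-xL and Mcl1 hold the effectors in check. BH3-only members carry stress signals to this switch by binding the survival members, and some of them also bind the effectors directly. Puma (*bbc3*) and Noxa (*pmaip1*) are known to be induced transcriptionally by cellular stress. Bim (*bcl2l11*) is known to respond to loss of growth factors, among other signals. None of these signals was measured here. Transcript levels do not show protein levels, which in this family depend strongly on protein turnover.

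Among the BH3-only genes, *bbc3* and *pmaip1* stood higher in MZ*eomesa* embryos and *bcl2l11* did not. *bbc3* (ENSDARG00000069282, Zv9 chromosome 15, 23098764 to 23115128), which encodes Puma, a binder of every major survival member in mammals, was listed at 1.80 FPKM in wild-type embryos. In MZ*eomesa* embryos it was listed at 8.72 FPKM. This is a 4.84-fold difference, or a log2 ratio of 2.27, and only 86 of the 14828 genes had a higher ratio. Of the 4719 genes with a mean FPKM within 2-fold of that of *bbc3*, 6.38% were at least 2-fold higher in MZ*eomesa* embryos. The range from the 5th to the 95th percentile of their log2 ratios ran from -0.95 to 1.12, and *bbc3* lay above it.

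*pmaip1* (ENSDARG00000089307, chromosome 10, 8746744 to 8746979) encodes Noxa, which in mammals binds Mcl1 in preference to Bcl2. It was listed at 95.9 FPKM in wild-type against 343 FPKM in MZ*eomesa* embryos, a 3.58-fold difference, or a log2 ratio of 1.84. It was already the most highly listed member in wild-type embryos, above 96.8% of all listed genes, and in MZ*eomesa* embryos it stood above 99.4% of them. Of the 750 genes within 2-fold of its mean FPKM, 2.27% were at least 2-fold higher in MZ*eomesa* embryos. The range from the 5th to the 95th percentile of their log2 ratios ran from -0.42 to 0.64.

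The listed span of *pmaip1* is only 236 bases, the shortest of the members, so that its FPKM rests on a short gene model and its level against longer genes is uncertain. Genes with such spans were past the fold more often than the rest of the table. Of the 378 genes listed over fewer than 300 bases, 13.2% were at least 2-fold higher and 24.6% at least 2-fold lower in MZ*eomesa* embryos. Over the 342 genes from 300 to under 1000 bases, the class of the *bcl2* entry, the shares were 26.9% higher and 9.06% lower. Among the 19 genes under 300 bases whose mean reached 50 FPKM, 3 (15.8%) were at least 2-fold higher, *pmaip1* being 1 of the 3. *bbc3* is listed over 16365 bases, a class in which 3.97% of genes were at least 2-fold higher. The span classes are not matched for level, and among genes at the level of *bbc3* the share was 6.38%. A listed span is the stretch from start to end on the chromosome, so a long one does not give the transcript length.

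**Figure D1:**
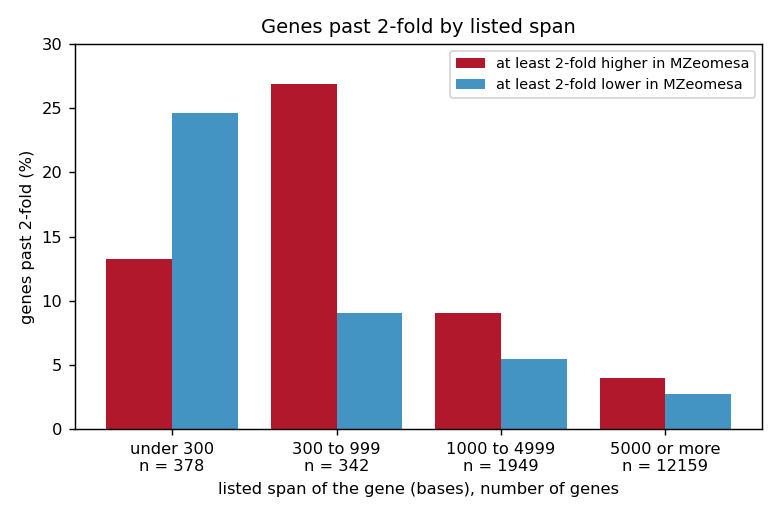
Share of genes (%) at least 2-fold higher (red) or lower (blue) in MZ*eomesa* embryos, by listed span in bases, over the 14828 genes that passed the filter. The class under 300 bases, which holds *pmaip1*, has 13.2% higher and 24.6% lower, and the class from 300 to under 1000 bases has 26.9% and 9.06%, against 3.97% and 2.74% in the class of 5000 bases or more, which holds *bbc3*.

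The third BH3-only gene, *bcl2l11* (ENSDARG00000079144, chromosome 13, 47820292 to 47862632), encodes Bim, which binds both survival members and effectors in mammals. It was listed at 1.51 FPKM in wild-type against 1.25 FPKM in MZ*eomesa* embryos, giving a log2 ratio of -0.27. At this low level the range from the 5th to the 95th percentile was wide, from -1.41 to 1.54, and *bcl2l11* lay well inside it. In wild-type embryos *bbc3* and *bcl2l11* were thus listed at much the same low level, and in MZ*eomesa* embryos *bbc3* alone of the pair was listed higher. Although the name *bmf1* is absent, its current Ensembl identifier (ENSDARG00000090234) is listed under the clone name CABZ01002533.1, at 6.03 and 5.26 FPKM. Its log2 ratio was -0.20, and it is left out of the counts of members.

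No gene is listed that overlaps the span of a member. The nearest gene to *bbc3* on its left, *sae1*, which encodes a subunit of the SUMO-activating enzyme, lies 6.11 kb away and was listed at 109 FPKM in wild-type against 106 FPKM in MZ*eomesa* embryos. On its right, 6.78 kb away, a 5S_rRNA entry was listed at 0 in both groups. To the right of *pmaip1*, at 4.16 kb, *GOLPH3 (1 of 2)* was listed at 92.7 and 84.9 FPKM, and to its left, at 5.63 kb, the entry CU655827.1 was near 0, at 0.00682 and 0.131 FPKM. The neighbours with a sizeable level, *sae1* and *GOLPH3 (1 of 2)*, therefore did not share the ratio of *bbc3* or *pmaip1*.

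The effectors differed little between the groups. *baxa* (ENSDARG00000020623, chromosome 3, 37771270 to 37780655), the zebrafish Bax gene, was listed at 36.0 FPKM in wild-type against 41.3 FPKM in MZ*eomesa* embryos, giving a log2 ratio of 0.20. The other *baxa* entry (ENSDARG00000089129), 2.69 kb away, was listed at 0.0520 and 0.113 FPKM and did not pass the filter. *baxb* (ENSDARG00000030881, chromosome 3, 32211781 to 32216892), a further *bax* gene of zebrafish, was listed at 2.30 FPKM in wild-type against 2.68 FPKM in MZ*eomesa* embryos, giving a log2 ratio of 0.22. For *baxa* the range of genes of like level ran from -0.62 to 0.65 and for *baxb* from -1.32 to 1.38, so both lay inside it. Of the 14828 genes, 4499 had a higher log2 ratio than *baxa* and 4299 a higher one than *baxb*.

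All 4 survival members were listed slightly lower in MZ*eomesa* embryos, by log2 ratios from -0.22 to -0.03. The median over all genes was itself below 0, at -0.01. Of the 14828 genes, 7695 had a higher ratio than *bcl2l1* and 8044 than *bcl2*, both near the middle. For *mcl1a* and *mcl1b* the counts were 9184 and 10334. Past the fold were 0 of the 4, beside 5.40% of all genes on the higher side and 3.80% on the lower. *mcl1a* (ENSDARG00000009779, chromosome 19, 358590 to 363093) and *mcl1b* (ENSDARG00000008363, chromosome 16, 31846294 to 31848260), the zebrafish copies of the short-lived survival protein Mcl1, were the highest of the 4 survival members. *mcl1a* was listed at 47.2 FPKM in wild-type against 42.9 FPKM in MZ*eomesa* embryos, giving a log2 ratio of -0.14. *mcl1b* was listed at 47.0 and 40.2 FPKM, a log2 ratio of -0.22. *mcl1a* lies 477 kb from *eomesa* on the same chromosome.

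*bcl2l1* (ENSDARG00000008434, chromosome 23, 19242253 to 19271049), which encodes the zebrafish Bcl-xL, was listed at 14.0 FPKM in wild-type against 13.7 FPKM in MZ*eomesa* embryos, giving a log2 ratio of -0.03. *bcl2* (ENSDARG00000094704, chromosome 24, 29007354 to 29007984) was listed at 5.63 and 5.42 FPKM, a log2 ratio of -0.06. Its entry spans only 631 bases. A longer entry named *BCL2 (1 of 2)* begins 52.4 kb to its right and was listed at 8.99 and 6.94 FPKM, a log2 ratio of -0.37. Reads of the *bcl2* gene can have been divided between both entries. The 4 survival members lay inside the range from the 5th to the 95th percentile for genes of like level, the narrowest of which was -0.58 to 0.65, for *mcl1a*.

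**Figure D2:**
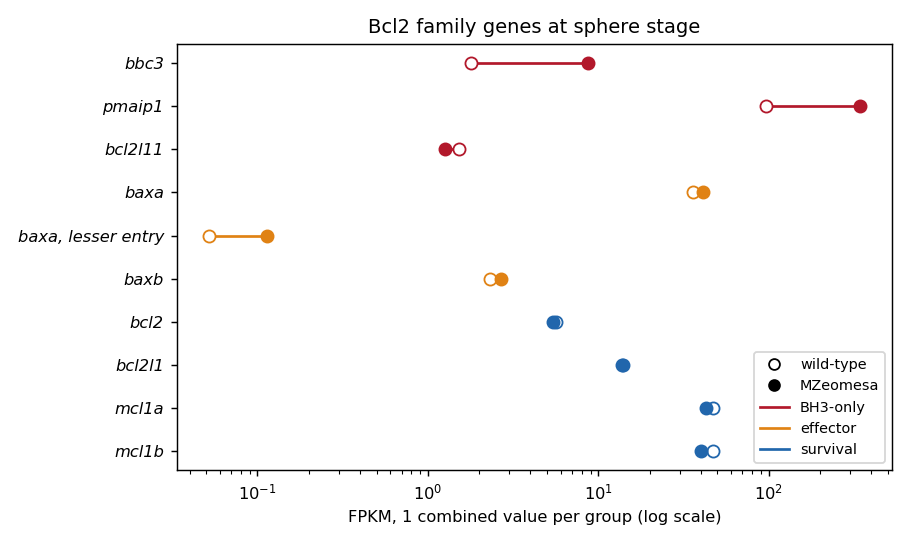
FPKM (log scale, 1 combined value per group) of the 10 listed Bcl2 family entries in wild-type (open circles) and MZ*eomesa* embryos (filled circles), coloured by role, with a line joining the 2 values of an entry. *bbc3* runs from 1.80 to 8.72 FPKM and *pmaip1* from 95.9 to 343 FPKM, while the values of each effector and survival member with at least 1 FPKM lie close together.

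Counted by role, 2 of the 5 death-promoting entries that passed the filter were at least 2-fold higher in MZ*eomesa* embryos and 0 were lower, beside 5.40% and 3.80% of all genes. With so few members, chosen with earlier results of these data known, a share of this kind only describes the list. The 2 were both BH3-only genes, of which 3 passed, and neither effector was among them. The death-promoting entries had a median log2 ratio of 0.22 and the survival members one of -0.10, beside -0.01 for all genes. Leaving out *pmaip1*, a choice made after its span had been seen, left 1 death-promoting gene past the fold, *bbc3*.

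**Figure D3:**
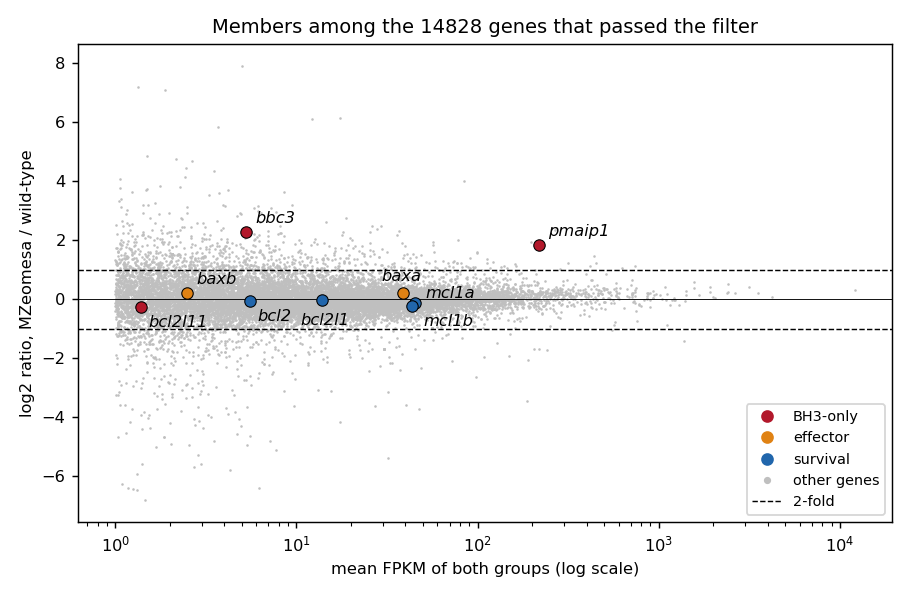
Log2 ratio (MZ*eomesa* over wild-type) against the mean FPKM of both groups (log scale) for the 14828 genes that passed the filter (grey) and the 9 Bcl2 family entries among them, coloured by role; dashed lines mark 2-fold. *bbc3* (2.27) and *pmaip1* (1.84) lie above the upper line, and the other 7 entries lie between -0.27 and 0.22.

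The order of the members by FPKM, which is scaled to length, differed between the groups at a few places. In wild-type embryos it ran from *pmaip1* (95.9 FPKM) through *mcl1a*, *mcl1b*, *baxa*, *bcl2l1*, *bcl2* and *baxb* to *bbc3* (1.80 FPKM) and *bcl2l11* (1.51 FPKM). In MZ*eomesa* embryos *bbc3* (8.72 FPKM) stood above *bcl2* (5.42 FPKM) and *baxb* (2.68 FPKM), and *baxa* (41.3 FPKM) above *mcl1b* (40.2 FPKM). Since no spread between samples is known, it cannot be said which neighbours in this order differ.

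The listed BH3-only members summed to 99.2 FPKM in wild-type against 353 FPKM in MZ*eomesa* embryos. The survival members summed to 114 FPKM and 102 FPKM, and the effectors to 38.3 and 44.1 FPKM. The ratio of BH3-only to survival transcripts was thus 0.872 in wild-type against 3.45 in MZ*eomesa* embryos, a difference of 1.98 on the log2 scale. *pmaip1* made up 96.7% of the BH3-only sum in wild-type against 97.2% in MZ*eomesa* embryos, so both ratios rest on its short gene model. Without *pmaip1*, the ratios were 0.0291 and 0.0975, a difference of 1.74 on the log2 scale. *bbc3* and *bcl2l11* were then the only BH3-only genes left in the sum. *bmf1*, found only under its clone name, is in none of these sums. It was listed at 6.03 FPKM in wild-type against 5.26 FPKM in MZ*eomesa* embryos. The BH3-only sum without *pmaip1* was 3.31 and 9.97 FPKM, in wild-type embryos less than *bmf1* alone. Counting *bmf1* would make both differences smaller, the one without *pmaip1* much smaller. The longer entry *BCL2 (1 of 2)*, listed at 8.99 FPKM in wild-type against 6.94 FPKM in MZ*eomesa* embryos, is not in the survival sums either. It is also left out of the wider sums below.

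Of 28 further names of the wider Bcl2 family, 14 were listed and 10 passed the filter, with a median log2 ratio of -0.04. Only *bnip4* was past the fold among these, on the higher side, and 0 were on the lower side. These are 1 and 0 of 10, beside 5.40% and 3.80% of all genes. *bnip4* belongs to the Bnip3 group, whose mammalian members act in mitophagy and cell death, and was listed at 7.98 FPKM in wild-type against 24.7 FPKM in MZ*eomesa* embryos, giving a log2 ratio of 1.63. Its relatives *bnip3la* (6.36 and 6.20 FPKM) and *bnip3lb* (29.0 and 34.7 FPKM) did not stand apart in this way.

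The other BH3-only genes of the wider family were not past the fold. *bida*, which links death receptors to the mitochondrion, was listed at 3.41 FPKM in wild-type against 5.01 FPKM in MZ*eomesa* embryos, giving a log2 ratio of 0.55. *bad* was listed at 27.0 and 28.3 FPKM, though it shares its span with another gene, while *bmf2* (0.685 and 1.16 FPKM) and *bik* (0.393 and 0.450 FPKM) were under the filter. *bcl2l10*, a survival member, had the highest wild-type level of the whole family, at 107 FPKM in wild-type against 78.0 FPKM in MZ*eomesa* embryos, giving a log2 ratio of -0.45. The Bax-like gene *bokb* was listed at 40.1 and 29.0 FPKM, a log2 ratio of -0.47. For wider sums, *bida*, *bad*, *bmf2* and *bik* were added to the BH3-only members and *bcl2l10* to the survival members. Other genes of the wider family, *bnip4* among them, were in neither sum. The ratio of BH3-only to survival transcripts was then 0.593 in wild-type against 2.15 in MZ*eomesa* embryos. *pmaip1* made up 73.4% of that BH3-only sum in wild-type against 88.4% in MZ*eomesa* embryos. These ratios too therefore rest largely on its short gene model.

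In the list of the mitochondrial route and caspases, 12 of 15 listed genes passed the filter, with a median log2 ratio of 0.09. Of these 12, 1 was past the fold on the higher side and 0 on the lower, beside 5.40% and 3.80% of all genes. The gene past the fold was the executioner caspase gene *casp6*, listed at 2.04 FPKM in wild-type against 4.33 FPKM in MZ*eomesa* embryos, giving a log2 ratio of 1.08. It shares its listed span with *casp6l1* (0.894 and 1.56 FPKM), so the division of reads between this pair is uncertain. The core of the apoptosome differed little: *apaf1* was listed at 16.4 and 15.7 FPKM, *casp9* at 13.0 and 13.8 FPKM and the cytochrome c gene *cycsb* at 110 and 111 FPKM. The main executioner gene at this stage by level, *casp3a*, was listed at 82.8 FPKM in wild-type against 65.5 FPKM in MZ*eomesa* embryos, giving a log2 ratio of -0.34.

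Of 6 listed inhibitor of apoptosis genes, 5 passed the filter and 0 were past the fold, with log2 ratios from -0.18 to 0.45. *xiap*, whose product blocks caspases, was listed at 7.14 FPKM in wild-type against 7.44 FPKM in MZ*eomesa* embryos. Of 15 listed entries for death receptors, their ligands and adaptors, 7 passed the filter and 0 were past the fold, with log2 ratios from -0.62 for the adaptor *fadd* (11.8 and 7.70 FPKM) to 0.63 for the caspase gene *casp8l2* (3.89 and 6.02 FPKM). *casp8*, the initiator caspase of the receptor route, was listed at 19.9 and 16.6 FPKM. Of all genes, 5.40% were past the fold on the higher side and 3.80% on the lower. In lists this small, a count of 0 therefore only describes them.

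**Figure D4:**
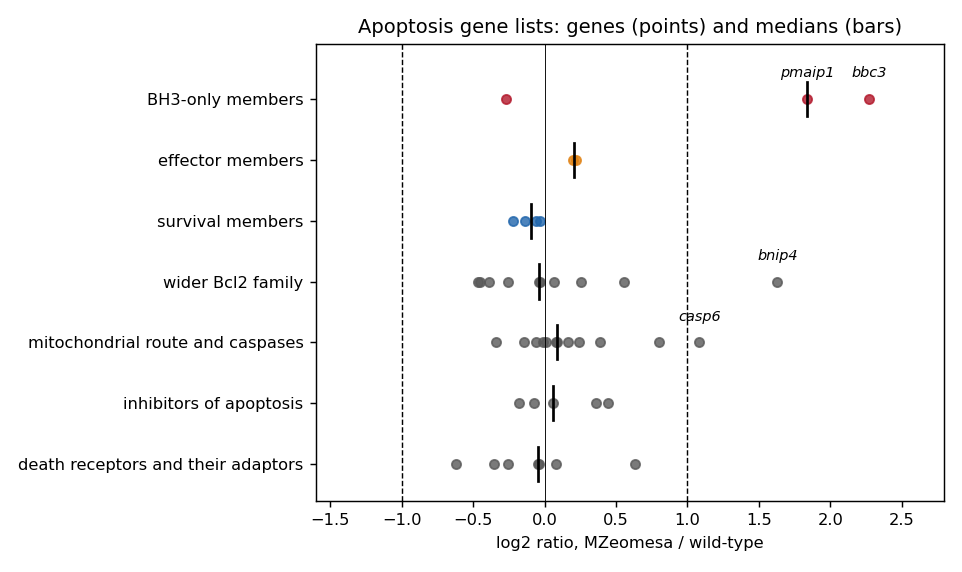
Log2 ratio (MZ*eomesa* over wild-type) for each gene (point) that passed the filter in the 3 roles of the members and in 4 further lists, with the median of each list (black bar) and 2-fold marked by dashed lines. The named genes past 2-fold are *pmaip1* (1.84), *bbc3* (2.27), *bnip4* (1.63) and *casp6* (1.08), and 0 genes of these lists lie past 2-fold on the lower side. Of all genes, 5.40% were past 2-fold on the higher side and 3.80% on the lower.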

How the data were processed

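Each sample was sequenced as single reads. The authors mapped them with TopHat2 and estimated expression with Cufflinks, its multi-read option turned on. The submitters' processing notes name TopHat2 2.0.5 and the Zv9 build, and the Cufflinks version was not given in the sources used here. The deposited FPKM values, per the file headers 1 per gene and group, combine the 2 samples of a group. A further 0 columns of per-sample values were present. The remaining columns hold the authors' own fold changes, test statistics, p-values and q-values, and were not used, so that no test was made and no p-value is given.

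Log2 ratios, counts past 2-fold, medians, sums and percentiles were computed in Python 3.11.15 with numpy 2.4.6, pandas 2.3.3 and matplotlib 3.10.9, and the counting was tested on simulated data. Genes of like level are those with a mean within 2-fold. Members and lists were chosen with earlier results of these data known. Named were all members, *eomesa*, genes of the 4 apoptosis lists past 2-fold, and neighbours of members past 2-fold; other genes were named after their values were seen. Some further genes of this rule are not reported here. Of 10 member rows, 9 had an identifier in the table of current names. Alternatives were other folds, pseudocounts, filters, centring and sums.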

Additional observations from a re-analysis of the deposited data

How the results depend on the processing

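No paired analysis was possible because the deposited table holds 1 combined value per group, and for the same reason no replicate could be left out. *bbc3* and *pmaip1* were past the fold at 1.5-fold, 2-fold and 3-fold, with pseudocounts of 0.1 and 1 FPKM and after centring. Their listed values, with differences of 4.84-fold and 3.58-fold, already settle the outcome under all of these settings, pseudocounts included, which add no support. The survival members gave 0 genes past the fold under each of these settings. Their largest log2 ratio by size, -0.22 for *mcl1b*, already settled this outcome, which adds no support either. Without the filter the lesser *baxa* entry joined the death-promoting genes, and their median log2 ratio became 0.67. With a mean of at least 5 FPKM it was 1.84 over the 3 of them left, a value that lends no support, because *bbc3* passes that filter only through its MZ*eomesa* level. Without *pmaip1*, a choice made after the data were seen, 1 death-promoting gene was past the fold. The log2 difference in the ratio of BH3-only to survival sums was 1.76 without the highest member on each side, 1.86 with the wider family and 1.74 without *pmaip1*. That these values lie close together lends no support. The wider BH3-only sum rests largely on *pmaip1*, and the others hold only *bbc3* and *bcl2l11*. The wider family without *pmaip1* was not computed. Its largest BH3-only gene would be *bad*, listed at 27.0 and 28.3 FPKM, with a log2 ratio of 0.06. Beside it, *bbc3* and *bcl2l11* together hold only 3.31 FPKM in wild-type against 9.97 FPKM in MZ*eomesa* embryos. The difference would therefore be much smaller than 1.74. The pseudocount of 1 FPKM took the log2 ratio of *bbc3* to 1.79. Over all genes, the counts higher and lower in MZ*eomesa* embryos were 801 and 563. They became 1807 and 1553 at 1.5-fold, 271 and 263 at 3-fold, 441 and 338 with a pseudocount of 1 FPKM, 3143 and 2273 without the filter, and 332 and 199 with a mean of at least 5 FPKM. Depth is unknown, so the error of the low values, *bcl2l11* and *bbc3* in wild-type embryos among them, is unknown too.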

Other observations

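Some apoptosis genes belong in no count above. *casp8ap2* (47.3 FPKM in wild-type against 60.3 FPKM in MZ*eomesa* embryos) and *pdcd8*, which the current name table gives as AIFM1 (37.6 and 36.1 FPKM), were marked as failed estimates in the table. Through current Ensembl identifiers, looked up after the values were seen, further entries were found under other names. *bada* is listed as *BAD (2 of 2)*, at 1.99 and 1.84 FPKM, *bcl2l12* under a clone name, at 24.0 and 19.8 FPKM, and *diablob*, whose human relative relieves the block on caspases, as *DIABLO (1 of 2)*, at 23.9 and 27.2 FPKM. The TNF receptor gene *tnfrsf1b* is listed without a name, at 11.9 and 11.6 FPKM. A second *bcl2* copy, *BCL2 (2 of 2)* on chromosome 2, was near 0 in both groups, at 0.0113 and 0.0164 FPKM. None of these entries was past 2-fold.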
